A study of Mus musculus with 49 samples.

Results

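The genes of motile cilia and of the axoneme were followed through 49 libraries of poly(A) RNA from mouse frontal cortex. Members were taken by name: axonemal dynein chains (Dnah, Dnaic, Dnal and Dnali1), dynein assembly factors (Dnaaf), cilia and flagella associated proteins (Cfap), radial spoke heads (Rsph), and Mapk15, Zmynd10, Foxj1, Ccdc39, Ccdc40, Ccdc153, Tmem212, Dynlrb2, Spag6, Spag16 and Hydin. A mean of at least 2 on the deposited log2 scale over the 49 libraries was also required. The rule found 57 genes of the 24495 in the table, and all 57 rows with a matching name met the level minimum.

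Every mouse was fed a high fat diet. The WT libraries comprise 9 after 2 months of feeding and 10 after 4 months. A further 10 libraries bear the label AKO, spelled out as Amylin-KO, after 4 months of feeding. The other 20 come from mice with a conditional transgene for human amylin, fed for 4 months: 10 received tamoxifen and 10 its vehicle, and their brains were collected 2 months after injection. The labels give neither the promoter that drives the transgene or the Cre, nor a strain, age, sex or batch, nor whether each library is a separate mouse. The spread behind every p-value is therefore that among libraries, which may be technical. The question behind the transgenic groups is what switching on human amylin changes, and behind the AKO label what losing amylin changes.

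A motile cilium beats because axonemal dyneins slide the doublet microtubules of the axoneme past each other. Outer arm dyneins give power, inner arm dyneins shape the bend, and radial spokes and the central apparatus coordinate the arms. In the brain, multiciliated cells are chiefly the ependymal cells that line the ventricles, and their axonemal genes are switched on by the transcription factor FOXJ1 together with RFX factors, which bind the X-box motif. Cortical tissue itself holds few such cells, and neurons carry a primary cilium, which lacks the dynein arms. Several members also have roles outside motile cilia.

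Recovered reads per library ran from 29165887 to 75646478, with a median of 42022358. Values are log2(normalised reads + 1). Fold changes on this scale are too small where a gene has few reads, and levels are compared between libraries and not between genes. Reads of Iapp, the amylin gene, were found in 10 of 10 libraries labelled AKO (36 to 116 reads), in no WT or tamoxifen library, where a count of 0 allows up to 3 reads, and in 1 vehicle library (1 read). This goes against the knockout label but does not settle it, so directions below hold for the libraries labelled AKO, as labelled. Markers of neighbouring tissue differed between libraries. Summed normalised reads of 21 olfactory bulb markers ran from 17145 to 156085 over the groups, and those of 14 striatal markers from 14639 to 100870. Vehicle libraries 1 and 3 stood highest of their group in Omp, an olfactory sensory neuron marker (11.47 and 12.26), and libraries 14 and 19 labelled AKO in Cyp2g1, an olfactory mucosa enzyme (12.30 and 11.34, against a group median of 6.09). Omp was also high in tamoxifen libraries 9 and 16 (11.53 and 10.80) and in libraries 14, 19 and 15 labelled AKO (12.73, 12.09 and 12.07). WT library 12 at 4 months (10.26) and library 21 labelled AKO (10.04) came next. In bulk tissue, fewer cells of a type and less RNA per cell cannot be told apart.

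Promoter letters were available in the RefSeq promoter table (GRCm38.p6) for 49 of the 57 members. Among them are 5 of the 7 members that passed a comparison of 2 groups below. These 5 are shown because they moved, as the 250 bases upstream of the annotated start, 5′ to 3′ on the plus strand. They lie at chr8:110266727-110266976 for Hydin, chr16:44394549-44394798 for Cfap44, chr4:41569544-41569793 for Dnaic1, chr11:114727169-114727418 for Dnaic2 and chr4:155408940-155409189 for Cfap74. Capitals mark GTTGCC or its reverse complement GGCAAC, letters contained in the X-box.
Hydin: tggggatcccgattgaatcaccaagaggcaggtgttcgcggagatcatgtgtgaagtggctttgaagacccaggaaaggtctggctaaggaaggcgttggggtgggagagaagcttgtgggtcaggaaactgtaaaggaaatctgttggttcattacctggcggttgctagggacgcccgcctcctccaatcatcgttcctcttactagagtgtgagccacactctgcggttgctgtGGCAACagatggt
Cfap44: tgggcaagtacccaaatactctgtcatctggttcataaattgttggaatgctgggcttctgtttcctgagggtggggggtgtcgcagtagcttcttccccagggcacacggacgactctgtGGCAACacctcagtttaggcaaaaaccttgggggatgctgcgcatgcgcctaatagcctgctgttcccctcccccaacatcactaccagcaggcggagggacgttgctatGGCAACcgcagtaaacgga
Dnaic1: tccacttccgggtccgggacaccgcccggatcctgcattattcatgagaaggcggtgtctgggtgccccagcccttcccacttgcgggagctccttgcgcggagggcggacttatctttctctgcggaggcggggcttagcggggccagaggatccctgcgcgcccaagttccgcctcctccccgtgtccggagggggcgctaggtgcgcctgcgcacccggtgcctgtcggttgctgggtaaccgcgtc
Dnaic2: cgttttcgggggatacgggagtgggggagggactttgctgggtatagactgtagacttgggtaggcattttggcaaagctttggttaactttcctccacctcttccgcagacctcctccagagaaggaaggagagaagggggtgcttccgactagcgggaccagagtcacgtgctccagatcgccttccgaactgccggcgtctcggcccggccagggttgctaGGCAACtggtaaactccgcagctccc
Cfap74: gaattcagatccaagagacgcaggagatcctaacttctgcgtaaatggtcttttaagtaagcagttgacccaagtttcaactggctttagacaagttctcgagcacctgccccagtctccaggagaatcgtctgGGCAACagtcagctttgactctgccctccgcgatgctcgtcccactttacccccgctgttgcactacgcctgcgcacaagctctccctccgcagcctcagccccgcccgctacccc

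GGCAAC began 13 bases before the start in Hydin, 26 in Dnaic2 and 116 in Cfap74, at 129 and 19 bases in Cfap44, and neither form was in the window shown for Dnaic1. Cfap74 has a second annotated start, whose window is not shown, with GGCAAC 166 bases and GTTGCC 37 bases before it. In the 300-base windows that run 50 bases past the start, GTTGCC on either strand was in 19 of 49 members (38.8%) and in 14.1% of the 27025 genes of that table. The forkhead letters GTAAACA on either strand were in 3 of 49 members (6.12%; Cfap20, Dnah17 and Cfap43) and in 4.05% of all genes. GTTNCC followed within 0 to 3 bases by GGNAAC was in 0 of 49 members and in 0.936% of all genes. This pattern requires C as the last letter of its left part, so it passes over pairs that begin with GTTGCT. In the letters shown above, GTTGCT stands 0 to 3 bases before GGCAAC in Hydin, Cfap44 and Dnaic2, and before GGTAAC in Dnaic1. Pairs with GTTGCT were not counted over the members or all genes, so the 0 does not show that members lack paired letters. These matches are descriptions of letters in a window, without a test, and a match is not a binding site. The forkhead letters cannot overlap GTTGCC, while the paired letters can contain it. Mapk15, Rsph4a and Foxj1 had no entry in the promoter table.

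Between libraries of 1 group, members differed slightly less than other genes of like level where levels were low, and somewhat more at higher levels. The SD was larger at low levels. Of the 55 members past the filter of the 5-group test, 20 had a mean below 5, with a median SD within groups of 0.76 against 0.82 for 1830 other genes. The 22 members with a mean from 5 to below 8 had 0.44 against 0.37, and the 13 from 8 upwards 0.17 against 0.13. Ccdc153, a coiled-coil gene of ciliated cells, varied most (SD within groups 1.94), then Dnah11, an outer arm heavy chain (1.72), and Tmem212, a membrane protein gene of ciliated cells (1.56). Cfap36, Cfap20 and Dnal4 varied least (0.07, 0.08 and 0.09), and the lowest read count of any library in these 3 was 919. A read was found in every library for 49 members, and 8 members were at 0 reads in at least 1 library: Cfap53 and Tmem212 in 6 each, Rsph14 in 4, Ccdc153, Cfap58 and Cfap221 in 2 each, and Rsph6a and Mapk15 in 1 each.

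**Figure D1:**
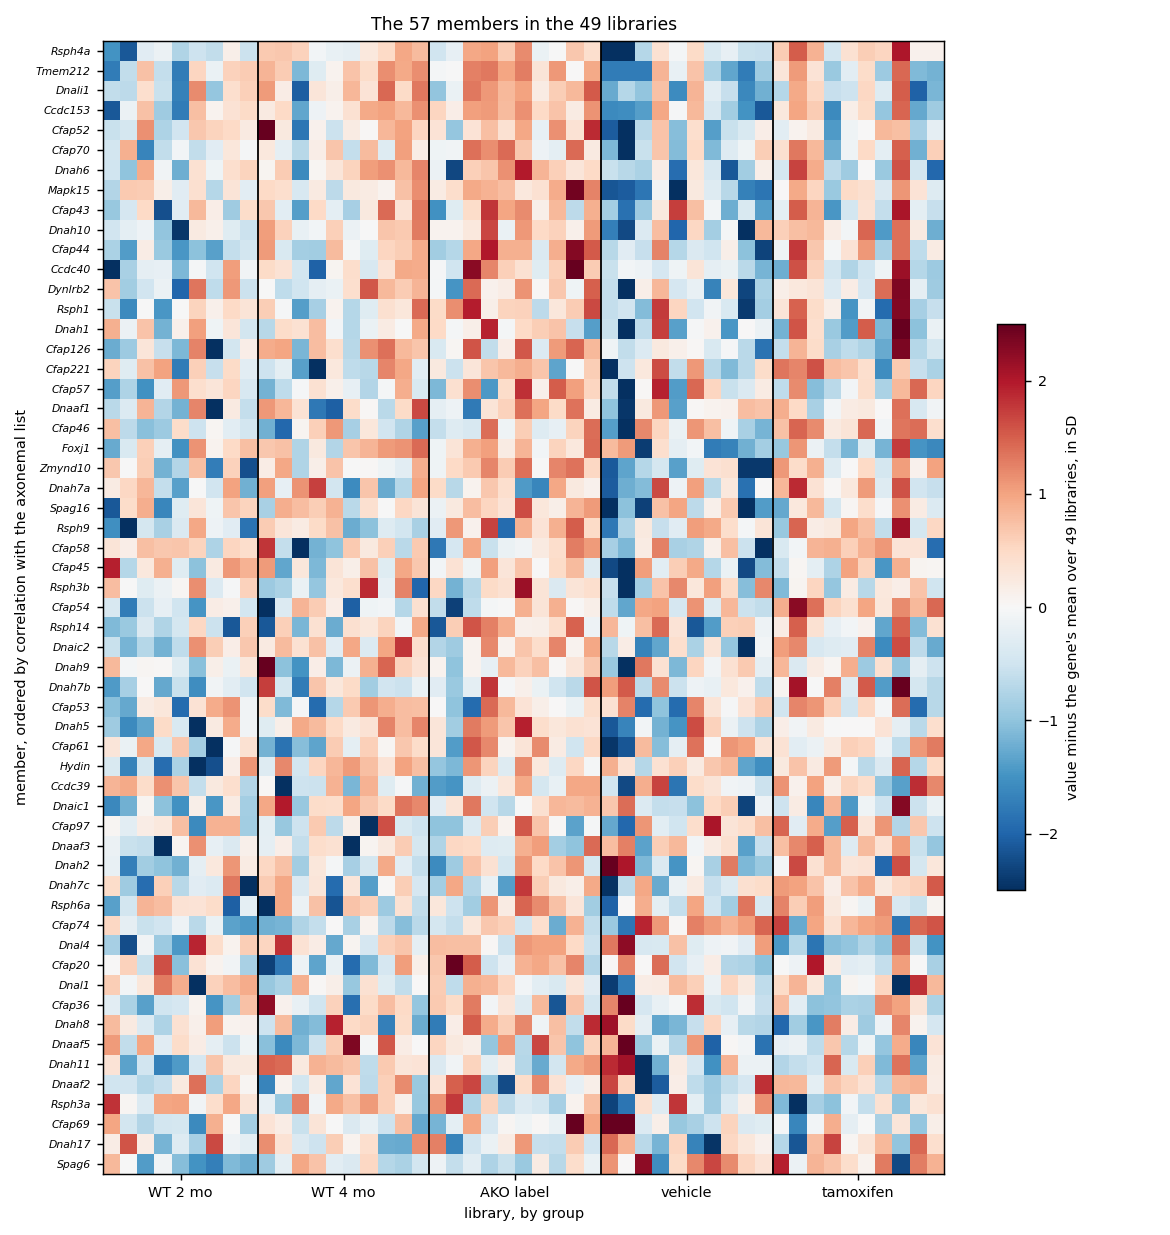
The 57 members (rows, ordered by their correlation with other axonemal genes) in the 49 libraries (columns, by group); colour is the value minus the gene's mean over the 49 libraries, in SD. Rows near the top, such as Mapk15 and Tmem212, are blue in many vehicle libraries and pale to red in many libraries labelled AKO, and single libraries stand out as columns.

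Foxj1 (chromosome 11, 116330704 to 116335399, minus strand; this and the gene positions below are from GENCODE M21, GRCm38) encodes the transcription factor of the motile cilia programme. It ran from 6.83 through a median of 7.82 to 8.46 in WT at 2 months, from 7.30 through 8.21 to 8.65 in WT at 4 months, from 7.70 through 8.04 to 8.65 in the libraries labelled AKO, from 6.28 through 7.43 to 8.43 with vehicle and from 6.77 through 7.29 to 8.86 with tamoxifen. All 5 groups overlapped, and the lowest vehicle and tamoxifen libraries lay below every library of the WT group at 4 months and of the AKO label. It passed in none of the 4 comparisons. The difference nearest to passing was vehicle against WT at 4 months (-0.69, SE 0.26, n = 10 against 10, limma adjusted p = 0.1165), which passed without vehicle library 3 or without vehicle libraries 1 and 3 (-0.93, adjusted p = 0.0101, a choice made after seeing the data).

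Mapk15 (chromosome 15, 75993769 to 75999154, plus strand) encodes an atypical MAP kinase that acts at basal bodies and in ciliogenesis. It ran from 0.00 through a median of 1.67 to 4.45 with vehicle, where the libraries had 0 to 16 reads, and from 2.82 through 4.62 to 5.61 with tamoxifen. In WT it ran from 3.18 through 4.42 to 5.69 at 4 months and from 3.08 through 4.29 to 5.01 at 2 months, and in the libraries labelled AKO from 4.38 through 5.23 to 7.43. In 6 vehicle libraries the value was 1.75 or less, while the lowest value in the other 4 groups was 2.82. Of the 55 members tested over the 5 groups, Mapk15 had the smallest p (adjusted p = 1.36e-05).

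**Figure D2:**
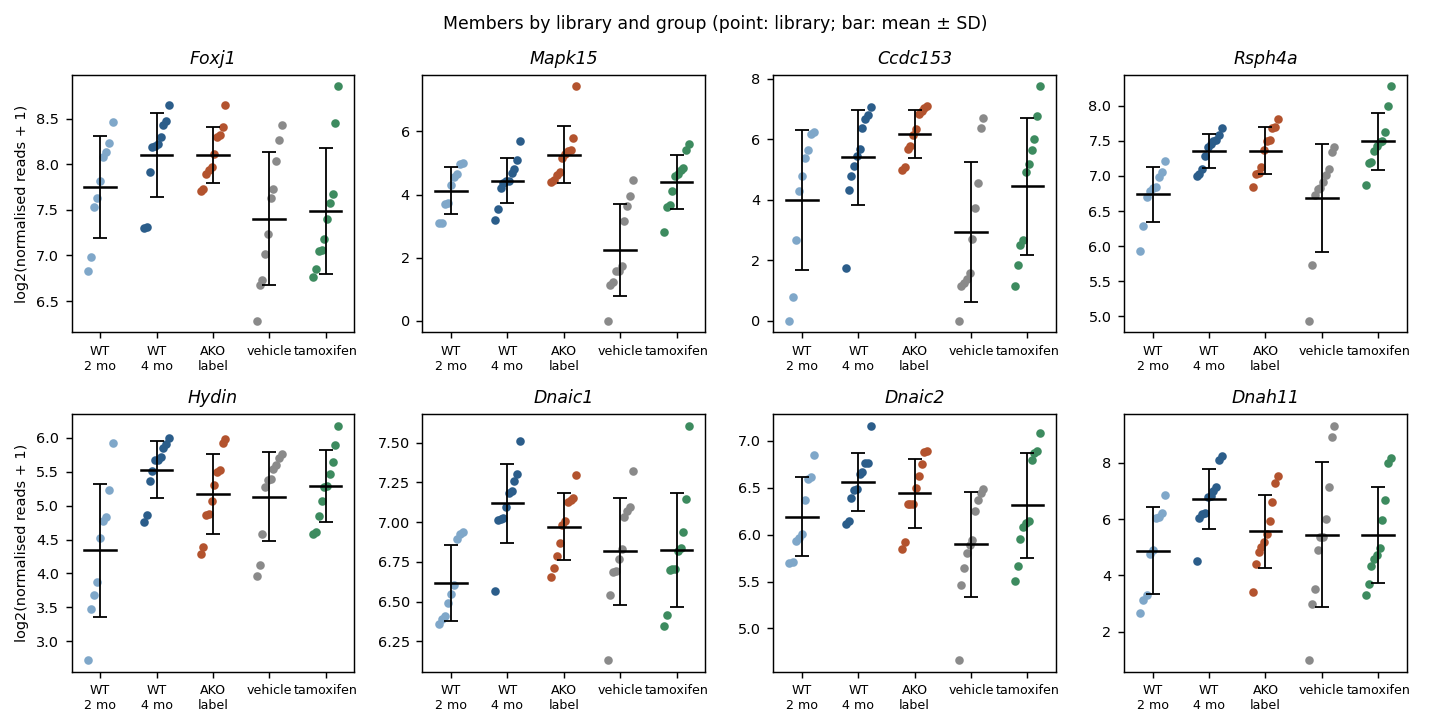
Values of 8 members, log2(normalised reads + 1), with a point for each library and the mean with its SD, by group; the vertical axes differ between panels and do not start at 0. Mapk15 has 6 vehicle libraries at or below 1.75, and the groups overlap in every panel.

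The first comparison asked what 4 months of diet changed against 2 months in WT mice; the labels give no age at collection. Of the 54 members tested, 4 were higher at 4 months and 0 lower. Over all 15251 genes tested, 4.54% were higher and 4.14% lower, the background for the 4 of 54 members. The mean was higher at 4 months in 39 of the 57 members, with a median difference of 0.16 over the 57 and 0.14 over those tested, against a median of 0.0034 over all genes tested. The 3 members not tested, Rsph14, Cfap53 and Cfap221, had too few reads. At an unadjusted p under 0.05 there were 10 members, against 27.2% of all genes.

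Rsph4a (chromosome 10, 33905111 to 33916021, plus strand), which encodes a radial spoke head protein, ran from 7.0 through 7.44 to 7.69 at 4 months and from 5.93 through 6.83 to 7.22 at 2 months. It rose by 0.62 (SE 0.14, adjusted p = 0.0134), and 3 of 10 libraries at 4 months lay below the highest at 2 months. With 1 model for all 49 libraries the call was lost (adjusted p = 0.0636). Dnaic1 (chromosome 4, 41569775 to 41638158, plus strand), an outer arm intermediate chain, ran from 6.57 through 7.14 to 7.51 at 4 months and from 6.36 through 6.55 to 6.94 at 2 months. It rose by 0.50 (SE 0.12, adjusted p = 0.0141), with a single 4-month library, number 11, below the highest 2-month library.

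Hydin (chromosome 8, 110266977 to 110610253, plus strand), a giant protein of the central apparatus whose loss causes hydrocephalus in mice, ran from 4.76 through 5.67 to 5.99 at 4 months and from 2.73 through 4.52 to 5.92 at 2 months. It rose by 1.19 (SE 0.32, adjusted p = 0.0253), a 2.28-fold difference, on 7 to 72 reads per library. The highest 2-month library lay above 9 of the 10 libraries at 4 months. Without 2-month library 33 or 35 the call was lost.

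Cfap44 (chromosome 16, 44394796 to 44482428, plus strand), part of the tether that holds an inner arm dynein head, ran from 5.66 through 6.31 to 6.79 at 4 months and from 5.32 through 5.62 to 6.27 at 2 months. It rose by 0.59 (SE 0.17, adjusted p = 0.0368), and the call was lost in 10 of the 19 fits that left out 1 library, with 1 model for all libraries and with quantile normalisation.

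Outer arm heavy chain Dnah11 missed the threshold at 1.82 (SE 0.57, adjusted p = 0.0504), as did the inner arm heavy chain Dnah10 at 0.85 (SE 0.27, adjusted p = 0.0535), outer arm Dnah5 at 0.62 (SE 0.21, adjusted p = 0.0601) and Cfap126 at 0.90 (SE 0.34, adjusted p = 0.0947). Of the olfactory bulb markers 0 of 21 passed, 7 had an unadjusted p under 0.05, and their median difference was 0.55, with summed normalised reads of 19513 to 66626 at 4 months and 17145 to 39766 at 2 months. Cortical excitatory neuron markers had a median difference of -0.19 and 2 of 14 fell, among them Neurod2 by 0.35. Of 16 ependymal genes outside the axoneme tested, 3 rose (Gm973 by 0.52, Tm4sf1 by 0.31 and Hspa2 by 0.21) and Fhad1 fell by 0.47, with a median of 0.30. Of 13 choroid plexus markers Lbp rose by 0.97, with a median of 0.50. The oligodendrocyte marker Opalin rose by 0.58 and the leptomeningeal Dcn by 0.51, with list medians of 0.23 and 0.35. Striatal markers had a median of 0.46 and 0 passed. Their part in the members' differences was not tested. With limma-voom on the recovered reads 7 members rose and 0 fell. The count ran from 2 to 8 when 1 library was left out: 7 without 4-month library 11, 8 without 2-month library 37, and 2 without 2-month library 33 or 35.

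The vehicle-injected transgenic mice and WT mice at 4 months of diet differ in genotype and injection, which cannot be told apart here. Of 51 members tested, 1 rose and 2 fell in the vehicle group, against 2.58% of all 15225 genes higher and 3.59% lower. The mean was lower with vehicle in 39 of the 57 members, with a median difference of -0.19, against -0.00041 over all genes tested. At an unadjusted p under 0.05 there were 17 members, 15 of them lower, which is 33.3% of the members tested for both directions. Of all genes 10.1% were higher and 10.9% lower at that p. The 6 members not tested were Rsph14, Cfap53, Rsph6a, Tmem212, Cfap221 and Cfap58.

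Mapk15 fell by 2.20 (SE 0.49, adjusted p = 0.0098), 4.58-fold on the deposited scale, and no fit with 1 library left out lost this call. Without vehicle libraries 1 and 3 it fell by 1.93 (adjusted p = 0.0114). Dnaic2 (chromosome 11, 114727408 to 114757889, plus strand), the other outer arm intermediate chain, ran from 4.66 through 5.92 to 6.49 with vehicle and from 6.12 through 6.57 to 7.16 in WT at 4 months. It fell by 0.67 (SE 0.20, adjusted p = 0.0465), with 6 vehicle libraries below all WT libraries, and the call was lost in 14 of 20 fits that left out 1 library, without the filter, with quantile normalisation and with scaling to total reads. Cfap74 (chromosome 4, 155409190 to 155466823, plus strand), a central apparatus protein, ran from 9.08 through 9.69 to 9.87 with vehicle and from 9.21 through 9.31 to 9.48 in WT at 4 months. It rose by 0.27 (SE 0.08, adjusted p = 0.0480), a call lost in 15 of 20 fits that left out 1 library, without the filter and with quantile normalisation. In Cfap74, 7 vehicle libraries lay above every WT library and 1 below.

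Other members missed the threshold. The assembly factor Zmynd10 differed by -0.52 (SE 0.16, adjusted p = 0.0563), Dnah5 by -0.57 (SE 0.18, adjusted p = 0.0685) and the inner arm heavy chain Dnah6 by -0.86 (SE 0.28, adjusted p = 0.0758). Ccdc153 (chromosome 9, 44240676 to 44247306, plus strand) ran from 0.00 through 2.14 to 6.69 with vehicle and from 1.76 through 5.56 to 7.07 in WT at 4 months, a difference of -2.46 (SE 0.83, adjusted p = 0.0876). Ccdc153 passed without vehicle library 4 or 39 or WT library 11 (adjusted p from 0.0339 to 0.145 over the fits without 1 library), and Zmynd10 without vehicle library 40 or 41 or WT library 11 (from 0.0325 to 0.102). Tmem212, too low to be tested here, had medians of 1.2 with vehicle and 4.40 in WT at 4 months. Ccdc153 and Tmem212 both reached from near 0 to high values within the vehicle group.

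Markers of other cell types were compared between the same groups. All 12 white matter oligodendrocyte markers fell, with a median of -0.63 and summed normalised reads of 86892 to 194331 with vehicle against 169605 to 207385 in WT at 4 months. Of 14 striatal markers 0 passed, 3 had an unadjusted p under 0.05, and the median was -0.75. Of 14 cortical excitatory neuron markers 1 rose, Cux2 by 0.39, and the median was 0.011. Of 21 olfactory bulb markers 0 passed, with a median of -0.20. The 17 ependymal genes outside the axoneme, of which 15 were tested, had 0 past the test and a median of -0.18. Of 12 choroid plexus markers tested 0 passed, 2 had an unadjusted p under 0.05, and the median was -0.46. Of 14 leptomeningeal fibroblast markers 0 passed, 3 had an unadjusted p under 0.05, and the median was -0.37. Of the 8 tanycyte and 7 mucosa markers tested, 0 passed. The part of these in the members' differences was not tested. The count of members called was 7 without vehicle libraries 1 and 3, and it ran from 1 to 7 when 1 library was left out: 5 without vehicle library 3, 7 without WT library 11, and 1 without vehicle library 5 or 11 or WT library 12, 13, 21, 23, 24 or 25.

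Tamoxifen against vehicle asked what injection with tamoxifen changed in transgenic mice, and 0 of the 50 members tested passed by limma or limma-voom. The share of all 15235 genes that passed was 0.0%. At an unadjusted p under 0.05 there were 10 members, 9 higher and 1 lower, which is 20% of the members tested for both directions. Of all genes 1.73% were higher and 1.57% lower at that p. The mean was higher with tamoxifen in 48 of the 57 members, with a median difference of 0.21 over the 57 and 0.16 over those tested, against -0.00098 over all genes tested. This comparison shares its vehicle libraries with the one against WT, so the same vehicle values enter both. The other 3 comparisons all share the WT libraries at 4 months.

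Mapk15 had the smallest p, at 2.16 (SE 0.51, 95% interval 1.09 to 3.23, adjusted p = 0.9998); its range with vehicle and with tamoxifen is given above. Zmynd10 (chromosome 9, 107547298 to 107551319, plus strand) ran from 6.47 through 6.86 to 7.11 with tamoxifen and from 5.64 through 6.22 to 6.82 with vehicle, a difference of 0.62 (SE 0.16). Rsph4a ran from 6.88 through 7.46 to 8.28 with tamoxifen and from 4.93 through 6.87 to 7.41 with vehicle, a difference of 0.81 (SE 0.26). Cfap54, a central apparatus protein, differed by 0.41 (SE 0.13) and Dnah7c, an inner arm heavy chain that can share reads with Dnah7a and Dnah7b, by 0.59 (SE 0.19). The 1 lower member was the light chain Dnal4, at -0.12 (SE 0.04). The adjusted p of each of these was 0.9998. Without vehicle libraries 1 and 3 the difference of Rsph4a was 0.47 and that of Mapk15 1.89. Tamoxifen libraries 9 and 16, also high in Omp (11.53 and 10.80), were kept in that fit, so it was one-sided. Beside these, choroid plexus markers had a median difference of 0.35, with Ttr at medians of 6.38 with tamoxifen and 5.23 with vehicle, and olfactory bulb markers one of -0.27; none of either list passed. Their part was not tested.

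The libraries labelled AKO were compared with WT at 4 months, and none of the 53 members tested passed by limma or limma-voom, against 0.785% of all 15288 genes. At an unadjusted p under 0.05 there were 6 members, 5 higher and 1 lower, or 11.3% of those tested. Of all genes 6.91% were higher and 7.05% lower at that p. The mean was higher in the libraries labelled AKO in 46 of the 57 members, with a median difference of 0.083 over the 57 and 0.079 over those tested, against 0.0054 over all genes tested. Cfap20, a doublet-associated protein, ran from 10.40 through 10.53 to 10.68 in the libraries labelled AKO and from 10.27 through 10.40 to 10.55 in WT, a difference of 0.13 (SE 0.04, adjusted p = 0.158). Of the 12 oligodendrocyte markers 2 fell, Mobp by 0.40 and Cldn11 by 0.27. An unadjusted p under 0.05 was found for 11 of the 12, and their median difference was -0.18. Of 21 olfactory bulb markers 0 passed, with a median of -0.36. The part of these 2 lists was not tested. Mapk15 differed by 0.82 (SE 0.34, adjusted p = 0.272), and by 0.53 without libraries 14 and 19, of which number 14 held the highest Mapk15 value of all 49 libraries (7.43). That library was also the richest in Cyp2g1. Library 15 labelled AKO, also high in Omp (12.07), was kept in the fit without libraries 14 and 19. Of 7 mucosa markers tested 0 passed, 5 had an unadjusted p under 0.05, and their median difference was 1.81, with summed normalised reads of 15183 to 60219 in the libraries labelled AKO and 8522 to 20013 in WT. The part of the mucosa genes was not tested. Dnah11 differed by -1.14 (SE 0.51, adjusted p = 0.319) and Foxj1 by 0.0037 (SE 0.16, 95% interval -0.33 to 0.34).

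**Figure D3:**
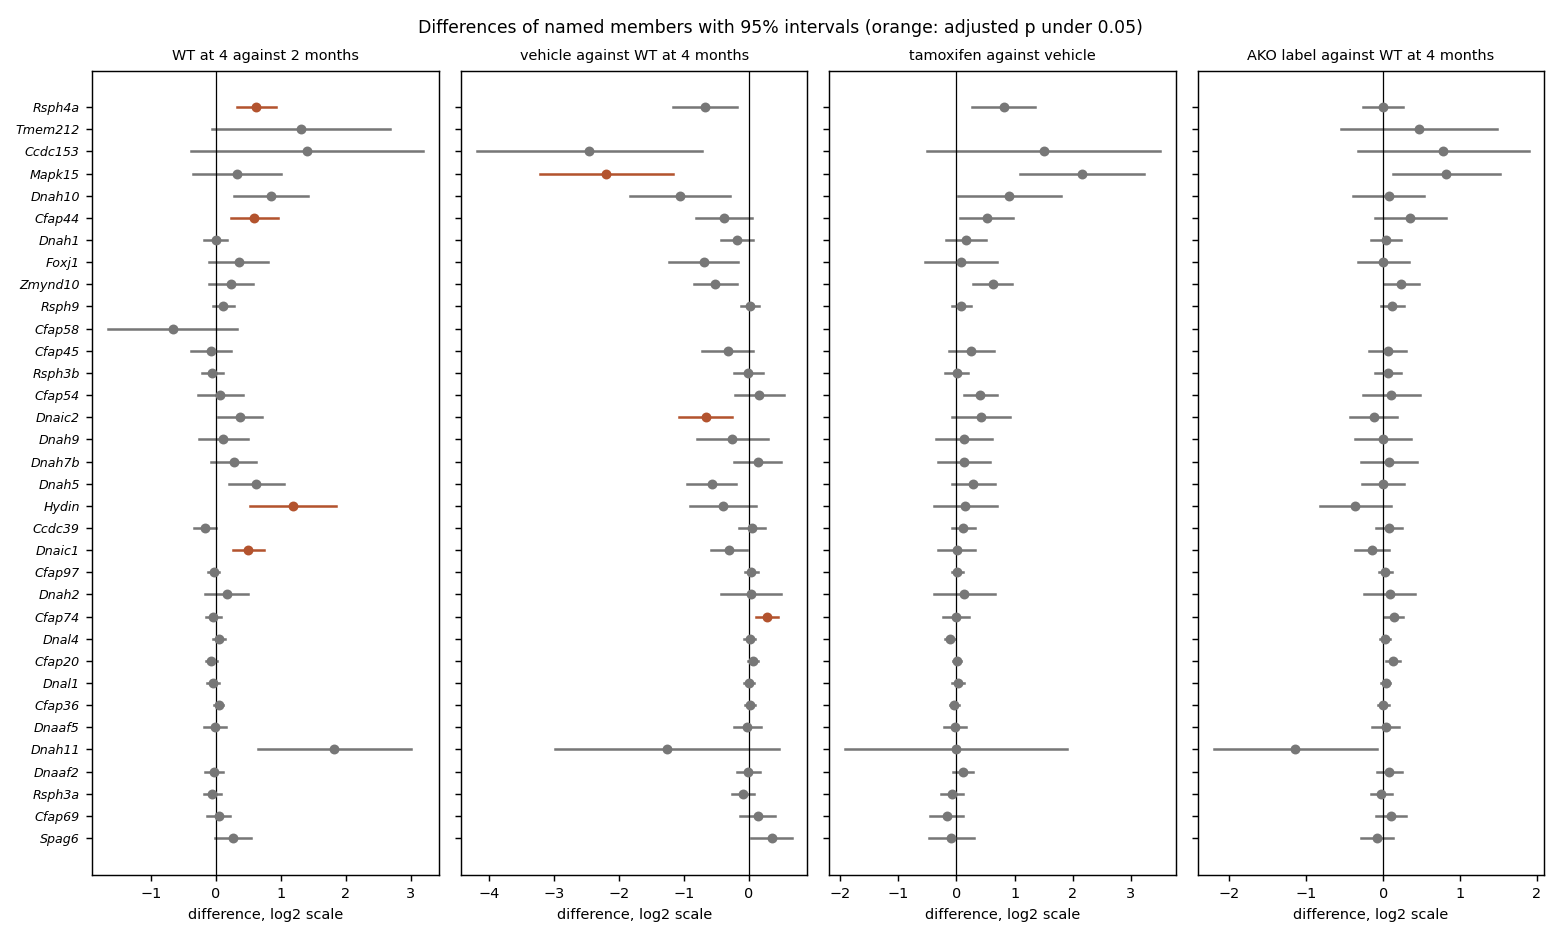
Differences between group means with their 95% intervals (log2 scale) for the 34 members named by rule, in the 4 comparisons; orange marks an adjusted p under 0.05, and a member without a point was not tested. Orange points are 4 for WT at 4 against 2 months, 3 for vehicle against WT and 0 in the other two; the horizontal axes differ between panels.

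A single test for any difference over the 5 groups called 13 of 55 members tested, against 23.1% of all 15873 genes, so the share of members called (13 of 55) was near that of all genes. After Mapk15 these were Zmynd10 (adjusted p = 0.00152), Rsph4a (adjusted p = 0.00238), Cfap44 (adjusted p = 0.0052), Tmem212, Spag6, Cfap54, Dnah5, Cfap74, Dnah10, Hydin, Ccdc153 and Dnaic1. The lowest of the 5 group means was that of vehicle in 6 of the 13 (Mapk15, Zmynd10, Rsph4a, Tmem212, Dnah10 and Ccdc153), of WT at 2 months in 6 (Cfap44, Spag6, Cfap54, Dnah5, Hydin and Dnaic1) and of WT at 4 months in 1 (Cfap74). Spag6, Cfap54 and Cfap74 had their 2 highest means in the 2 transgenic groups. Spag6 was at 8.01 ± 0.42 (SD, n = 10) with vehicle, 7.92 ± 0.46 (n = 10) with tamoxifen and 7.39 ± 0.34 (n = 9) in WT at 2 months. The gene ID listed as Spag6 carries the symbol Spag6l in RefSeq, and reads may be shared with its near-identical copy. For no member were 2 compared groups free of overlap, and the share of all genes for which this holds was not counted.

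By role, the outer arm heavy chains were lower with vehicle than in WT at 4 months in 5 of 5 means, with a median of -0.25 and 0 past the test. Over all 57 members the mean was lower with vehicle in 39. Dnah5, mutated in primary ciliary dyskinesia, had means of 7.36 ± 0.24 (SD, n = 10) in WT at 4 months and 6.79 ± 0.55 with vehicle. Dnah9 had 7.41 ± 0.55 and 7.16 ± 0.71, a difference inside that spread. Dnah11 ran from 1.0 to 9.32 within the vehicle group alone, which is 1 to 476 reads. Dnah8 and Dnah17 are known mainly from sperm and had at most 50 and 41 reads in any library.

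The 7 inner arm heavy chains had higher means with tamoxifen than vehicle in 7 of 7, with a median of 0.31 and 0 past the test. Over all 57 members the mean was higher with tamoxifen in 48. Dnah10 ran from 3.07 through 4.66 to 5.58 with tamoxifen and from 2.05 through 3.78 to 5.01 with vehicle, a difference of 0.91 (SE 0.43). Dnah1, needed for the sperm tail, had group means from 8.12 with vehicle to 8.34 in the libraries labelled AKO. Dnah2 differed by at most 0.16 in the 4 comparisons, and Dnah7b was 0.27 higher at 4 than at 2 months of diet in WT (SE 0.17). Dnah7a, Dnah7b and Dnah7c are near-identical copies, so the split of reads among them is uncertain.

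Among 6 intermediate and light chains, Dnaic1 and Dnaic2 are the 2 that passed a test, in different comparisons. Dnal1, a light chain that binds the motor domain of an outer arm heavy chain, had group means from 12.64 to 12.69 and Dnal4 from 10.83 to 10.95, with 4328 and 1278 reads or more in every library. Dnali1, an inner arm light chain with 1 to 73 reads, had medians of 4.46 in WT at 4 months and 2.77 with vehicle, a difference of -1.43 (SE 0.53, adjusted p = 0.119).

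Of the 5 assembly factors, which fold and load dyneins in the cytoplasm, none passed a comparison of 2 groups. Zmynd10 had means of 6.97 ± 0.23 (SD, n = 10) in the libraries labelled AKO, 6.84 ± 0.24 (n = 10) with tamoxifen, 6.73 ± 0.23 (n = 10) in WT at 4 months, 6.50 ± 0.48 (n = 9) in WT at 2 months and 6.22 ± 0.45 (n = 10) with vehicle. Each mean differed from its neighbour in that order by less than the larger of their SDs. Dnaaf2 and Dnaaf5 differed by at most 0.12 in the 4 comparisons.

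Among the 8 radial spoke proteins Rsph4a alone passed a test between 2 groups. Rsph9, a spoke head subunit, had means between 8.67 ± 0.20 (SD, n = 9) in WT at 2 months and 8.90 ± 0.19 (n = 10) in the libraries labelled AKO. Rsph3a and Rsph3b, near-identical copies of a spoke stalk protein, differed by at most 0.089 and 0.066 in the 4 comparisons. Rsph1, another head protein, differed by 0.26 between the libraries labelled AKO and WT (SE 0.12, adjusted p = 0.338).

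The 9 central apparatus genes held members of both directions. Beside Hydin and Cfap74, Cfap54 had means of 7.69 ± 0.24 (SD, n = 10) with tamoxifen and 7.05 ± 0.27 (n = 9) in WT at 2 months. Cfap69 reached 9.91 in a vehicle library, where the group median was 8.84. Spag16, a central pair protein, had medians of 4.50 in WT at 4 months and 3.14 with vehicle, a difference of -1.16 (SE 0.49, adjusted p = 0.171). Among the 10 ruler and doublet-associated proteins, Ccdc39 and Ccdc40 set the spacing of the inner arms and spokes. Ccdc39 had group means from 8.92 to 9.09, and Ccdc40 from 5.45 to 6.27. Cfap45 lies inside the doublet and differed by -0.33 between vehicle and WT (SE 0.19, adjusted p = 0.345). Cfap36 and Cfap97, 2 Cfap genes with no settled axonemal role, had group means from 12.21 to 12.27 and from 10.57 to 10.63, and Cfap58 had at most 32 reads.

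The members did not vary as 1 block between libraries. After group means were removed, the values of each member were correlated over the 49 libraries with a score for each gene list. The lists held 63 other axonemal genes, 21 olfactory bulb and neuroblast genes and 14 cortical excitatory neuron genes. Each score was the mean over the list after every gene was centred by group and scaled to equal spread. Libraries share depth and dissection, and no p is given. At Pearson r of 0.5 or more, 17 members went with the axonemal list, against 1.85% of all genes. With the bulb list went 7 members, against 14.6% of all genes, and with the cortical neuron list 4, against 18.5%. For the bulb and cortical neuron lists, the share of members was below that of all genes. No member was in the axonemal and another of these 3 sets, and 29 were in none of the 3. At the same r, 4 members went with the striatal list, against 3.93% of all genes, 4 with the choroid plexus list, against 1.39%, 4 with the oligodendrocyte list, against 2.88%, and 1 with the mucosa list, against 0.593%. These were 7 members, of which 6 were in the axonemal set.

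The axonemal set held Rsph4a (Pearson r = 0.80, Spearman rho = 0.76, and r = 0.75 without the 2 libraries farthest in the list), Tmem212 (0.79, 0.78 and 0.77), Ccdc153 (0.75, 0.74 and 0.73) and Mapk15 (0.65, 0.65 and 0.62). It also held Dnali1, Cfap52, Cfap70, Dnah6, Cfap43, Dnah10, Cfap44, Ccdc40, Dynlrb2, Rsph1, Dnah1, Cfap126 and Cfap221. Ccdc153 and Tmem212 followed each other (r = 0.93, rho = 0.92, and 0.91 without the 2 farthest libraries). Beside these, Ccdc153 had r = 0.72 with the oligodendrocyte list and r = 0.68 with the striatal list, and r = -0.018 with the bulb list. Tmem212 had 0.73 with the oligodendrocyte list and 0.67 with the striatal list, and Cfap43 0.59 and 0.53 with these and 0.51 with the choroid plexus list. Dnah1 had 0.61 with the striatal and 0.53 with the choroid plexus list. Rsph4a had 0.57 with the choroid plexus list, and Ccdc40 0.52 with it and 0.55 with the mucosa list. Spag16, in none of the 3 sets, had 0.57 with the oligodendrocyte list.

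The bulb set held Dnah11 (r = 0.91, rho = 0.89, and 0.89 without the 2 farthest libraries), Cfap69 (0.64, 0.54 and 0.45), Dnah2 (0.61, 0.54 and 0.47), Dnaic1 (0.58, 0.55 and 0.52), Dnah7b (0.56, 0.50 and 0.52), Dnal4 and Foxj1 (0.55, 0.42 and 0.45). The r of Dnah11 with the axonemal list was -0.13, against 0.91 with the bulb list. Foxj1 had r = 0.42 with the axonemal list, and 14 other members had r of 0.5 or more with Foxj1 itself, against 7.47% of all genes. The cortical set held Cfap74 (r = 0.80, rho = 0.67, and 0.67 without the 2 farthest libraries), Dnal1 (0.65, 0.37 and 0.47), Spag6 (0.57, 0.57 and 0.41) and Dnah9. Cfap74 had r = -0.66 with the bulb list and -0.70 with Foxj1. Of the 7 members that passed a comparison of 2 groups, Rsph4a, Mapk15 and Cfap44 were in the axonemal set, Dnaic1 in the bulb set, Cfap74 in the cortical set, and Hydin and Dnaic2 in none. The bulb and cortical sets held a smaller share of the members than of all genes, so they do not set the members apart from other genes.

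**Figure D4:**
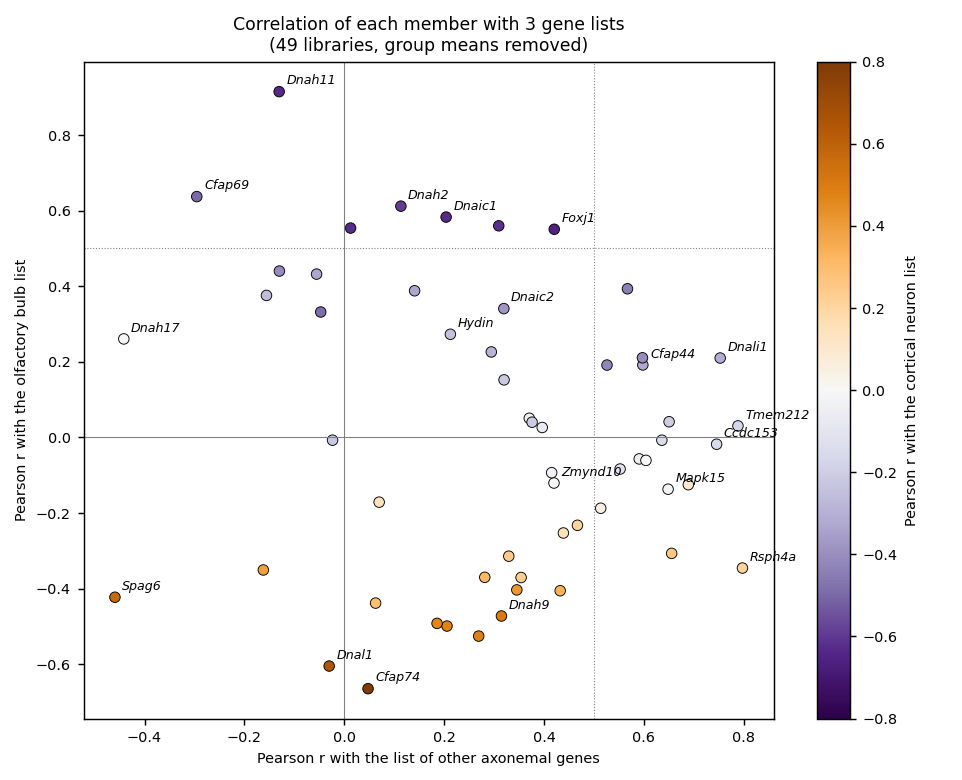
Each point is 1 of the 57 members, by its Pearson r over 49 libraries (group means removed) with the list of other axonemal genes (horizontal) and with the olfactory bulb list (vertical); colour is r with the cortical neuron list, and dotted lines mark 0.5. Rsph4a, Tmem212 and Ccdc153 lie at the right, Dnah11 stands alone at the top (0.91), and Cfap74, Dnal1 and Spag6 lie low in dark orange.

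Other genes of the pathway, from lists chosen by function, were counted in the same fits. Of 71 other axonemal genes, 57 were tested with vehicle against WT, where 0 rose and 4 fell, among them Ak7, an adenylate kinase of cilia, by 2.02, the dynein intermediate chain gene Wdr78 by 0.43 and Tsga10 by 0.39. Regulators of the multiciliated cell fate, such as Mcidas, Gmnc and Rfx3, had 0 of 6 to 8 tested past the test in each comparison. Of 27 intraflagellar transport genes tested, which serve motile and primary cilia alike, Ift80 rose by 0.18 and Traf3ip1 fell by 0.27 at 4 against 2 months in WT, and Ift80 fell by 0.24 with vehicle against WT. Of 27 primary cilium genes, Nphp4 fell by 0.31 in the first of these and Sstr3, a somatostatin receptor of neuronal cilia, rose by 0.22 in the second. In tamoxifen against vehicle and in the libraries labelled AKO against WT, 0 genes of these 4 lists passed.

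Defining choroid plexus markers were followed beside the members: Ttr medians ran from 4.10 to 6.38, Folr1 from 2.94 to 3.51 and Kcnj13 from 5.56 to 6.30, and the highest library for Ttr was in WT at 4 months (9.41). The mean z-score of the members was followed most closely by Drc7, which encodes a subunit of the nexin-dynein regulatory complex (r = 0.81 over 49 libraries), the urea transporter gene Slc14a2 (0.79), Rarres2, which encodes chemerin (0.73), 2410004P03Rik (0.73), Zfhx3 (0.72), 1700026D08Rik (0.70), Lrrc71 (0.70), Ak7 (0.70), Fam166b (0.69) and Galr1 (0.68). Drc7 ran from 2.33 through 4.71 to 6.21 with vehicle and from 4.41 through 5.31 to 6.09 in WT at 4 months, and its lowest vehicle library lay below every WT library at 4 months. Drc7, Ak7 and Rarres2 were on the lists above, and the other 7 were not.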

How the data were processed

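RNA from 49 mouse frontal cortex samples was sequenced as stranded poly(A) libraries, per the labels' protocols. The deposited table holds log2(reads divided by a size factor, plus 1) for 24495 genes, as the authors scaled them. For the aligner, counter, genome build, use of strand and scaling method, no details are given in the sources used here. A count table had been planned for as a possibility; the deposited unit was log2, so limma was the main test. Of 50 value columns, 1 matched no sample and was not used. Whole reads were recovered from the steps in the values (99.92% to 100.00% of values up to 200 reads within 0.1 of a whole number in each library; 7 genes failed, 0 of them members).

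Each pair of groups was fitted alone with limma-trend (limma 3.58.1, R 4.3.3, robust shrinkage) after a filter of at least 10 normalised reads in a number of libraries equal to the size of the smaller group, and 15 reads in all. Adjusted p-values are Benjamini-Hochberg over all genes tested, two-sided, with a threshold of 0.05. A moderated F test covered the 5 groups. Scripts were tested on simulated data. Alternatives were limma-voom on the recovered reads, 1 model for all libraries, a pseudocount of 10, no filter, a mean of at least 50 normalised reads, quantile normalisation, scaling to total reads, non-robust shrinkage, and each library left out in turn. Leaving out vehicle libraries 1 and 3, or libraries 14 and 19 labelled AKO, was chosen after seeing the data.

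The members and all gene lists were chosen with earlier results of these data known. Members were named if past a test, among the 3 smallest p-values of a comparison, among the 3 highest means of a role, among the 3 largest or smallest SDs within groups, or as Foxj1, Mapk15, Zmynd10, Ccdc153 or Tmem212. Other members that the text names were chosen after their values were seen. Other genes were the 10 that followed the members' mean most closely, defining markers, and up to 3 per list. Plots used matplotlib 3.10.9, and gene positions are from GENCODE M21. Results of a gene among the other axonemal genes are not reported here.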

Additional observations from a re-analysis of the deposited data

Results flagged for a closer look

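In 15 of 170 sets of 1 member in 1 group of 9 or 10 libraries, a single library stood apart from the others of its group by Dixon's criterion, which chance meets in about 1 of 20 sets. Values are log2(normalised reads + 1).

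In WT at 4 months, library 11 was the lowest in Ccdc153 (1.76) and in Dnaic1 (6.57). In WT at 2 months the lowest were library 38 in Cfap58 (2.27), library 36 in Dnah10 (2.18) and library 37 in Dnal1 (12.39). Of the libraries labelled AKO, number 14 was the highest in Mapk15 (7.43) and number 12 in Rsph3b (8.74), while number 16 was the lowest in Cfap36 (12.10) and number 6 in Cfap54 (6.32).

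Vehicle library 3, one of the highest in Omp, was the lowest in Dnah9 (5.37) and Rsph3b (7.62). With tamoxifen, library 9 was the highest in Dnal4 (11.04) and the lowest in Spag6 (6.81), library 28 was the lowest in Cfap58 (1.04) and library 18 in Rsph3a (8.28).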

How the results depend on the processing

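Counts of members called stayed at 0 under every alternative run for tamoxifen against vehicle and for the libraries labelled AKO against WT, including each fit without 1 library (0 to 0). WT at 4 against 2 months gave 4 members, 7 with limma-voom and 2 to 8 without 1 library. Vehicle against WT gave 3 members, 7 with 1 model for all libraries, 1 with quantile normalisation, 7 without vehicle libraries 1 and 3, and 1 to 7 without 1 library. The test over the 5 groups called 13, and 11 to 18 without 1 library. With Spearman in place of Pearson 4 members went with the bulb list and 2 with the cortical list, and with scaling to total reads 2 with the cortical list. Foxj1 in the libraries labelled AKO against WT turned to -0.048 with limma-voom, -0.011 with quantile normalisation and -0.003 without libraries 14 and 19, and ran from -0.085 to 0.065 without 1 library; with tamoxifen it ran from -0.07 to 0.196. The cause of these shifts was not tested.

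Adjusted p for Cfap44 was 0.0984 with 1 model and 0.0838 with quantile normalisation, and for Rsph4a 0.0636 with 1 model. For Cfap74 it was 0.0629 without the filter and 0.0741 with quantile normalisation, and for Dnaic2 0.0604, 0.069 and, scaled to total reads, 0.0539. Zmynd10 passed in vehicle against WT with 1 model (adjusted p = 0.0241). Rsph4a, Dnaic1 and Mapk15 kept their calls in every fit without 1 library. Apart from fits without 1 library, 225 values of named members stayed on their side of the threshold, 8 lost a call, 2 gained one and 3 changed sign. In the fits without 1 library 473 stayed, 41 lost a call, 7 gained one and 10 changed sign, all 10 of Foxj1. With the filter on low values, Rsph14 and Cfap221 had too few reads for any test, and Cfap53 for the comparisons of 2 groups.

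With title numbers as a replicate block, the libraries labelled AKO against WT gave 0 members. The 5 shared numbers did not pair the samples: correlations of deviations were 0.054, -0.233, -0.281, 0.122 and 0.108, and 0 of 5 libraries correlated best with their own number. No paired analysis was possible for the other comparisons because the groups share fewer than 2 numbers.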
